A study of Mus musculus with 4 samples.

Results

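Ebf1, Ebf2 and Ebf3 encode 3 members of the early B cell factor family, and their transcripts were followed here through the mouse Mesp1 lineage. They were taken by symbol from a table of 27998 genes, in which each symbol stood on 1 row, so that the members are 3 of 27998 genes measured. The data were 4 single-cell RNA libraries, 1 for each of the embryonic days E8.0, E8.25 (the early stages), E9.5 and also E10.5 (the late stages). Every library had the same genotype, Mesp1Cre;Rosa26-GFPflox/+ in Swiss Webster mice. Mesp1 is active in early mesoderm, and Cre driven from it turns on GFP permanently, so that GFP marks descent and not present Mesp1 expression. Living GFP-positive cells were sorted from pooled embryos, from the upper body at the early stages and from heart and pharyngeal apparatus at the late stages. Region therefore changed together with stage between the early and the late pair and cannot be told apart from it. No stage had a replicate, so stages were not tested against each other, and intervals given with stage values cover counting error only.

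EBF proteins bind DNA as dimers, through a zinc-coordinating DNA-binding domain followed by an atypical helix-loop-helix region. Ebf1 is best known for specifying B lymphocytes, Ebf2 for brown fat and bone-forming cells, and Ebf3 for neurons and muscle, and all of them are also made in embryonic mesenchyme. In the sea squirt, the EBF gene acts in the cardiopharyngeal lineage where pharyngeal muscle separates from heart. The vertebrate counterpart of that lineage, the cardiopharyngeal mesoderm, gives rise to heart and to the branchiomeric muscles of jaw, face and neck, and lies within the cells sorted here.

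In the build GRCm38.p6, Ebf1 (ENSMUSG00000057098) lies at chr11:44618100-45008096, Ebf2 (ENSMUSG00000022053) at chr14:67233292-67430952 and Ebf3 (ENSMUSG00000010476) at chr7:137193671-137322805. Promoter windows of RefSeq, 250 bases before to 50 bases after a start site, were matched by symbol for 2 of the 3 genes, Ebf1 with 2 windows and Ebf3 with 1. Stretches of an Ebf1 and an Ebf3 window are shown because these were the furthest apart in base composition. The Ebf1 window at the start of the gene was 36.7% G and C, the second Ebf1 window (chr11:44619978-44620277) 53.0% and the Ebf3 window 77.0%, against a median of 52.7% over 32851 windows. The Ebf1 stretch is chr11:44618000-44618099 on the plus strand, the 100 bases before its start site. The Ebf3 stretch is chr7:137314499-137314528 on the minus strand, a start site inside the annotated span of the gene, with a CArG box (the binding site of serum response factor) in capitals, 73 to 64 bases before the start.
Ebf1: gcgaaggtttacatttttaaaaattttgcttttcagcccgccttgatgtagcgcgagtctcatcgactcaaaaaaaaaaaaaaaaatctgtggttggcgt
Ebf3: gcggccgctcCCATATATGGcgcaggcgcc
The CArG box was looked for after these sequences had been seen, and 1.63% of the 32851 windows held it on either strand. The palindrome CCCNNGGG, the core of the site that EBF proteins bind, was in the Ebf3 window and in neither Ebf1 window, and in 13.7% of all windows. Letters that match a site do not show that it is bound.

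The libraries held between 2956 and 8070 cells, of which 21448 of 22662 were retained, with medians of 15205 to 35216 UMIs (distinct captured molecules) per cell. Levels are given as CPM, the UMIs of a gene for every 1000000 UMIs in the same cells. Since the kit reads 3' ends and the counts are not scaled by length, CPM is compared between cells and not between genes. Cells were placed in compartments by gates, sets of marker genes that held no Ebf gene, each cell going to the first gate it passed. The Lhx2 muscle progenitor gate asked for Lhx2 with a further marker such as Tcf21, Msc, Myf5 or Myod1, the mesenchyme gate for Prrx1 with Twist1, and the cranial mesoderm gate for any pair of markers from a set that included Cyp26c1, Otx2 and Alx1, without Meox1. Blood, macrophage, endothelial, cardiomyocyte, neural crest and mesothelial gates were applied before these. The cells left over, called other cells, comprised Moxd1 Shox2, somite, caudal and second heart field gates and an ungated rest. The muscle progenitor gate held 152, 137, 757 and 432 cells from E8.0 to E10.5, the mesenchyme gate 2612, 1082, 562 and 1836, the cranial mesoderm gate 348, 126, 132 and 112, and other cells 3129, 747, 1654 and 3029.

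By its own markers, the muscle progenitor gate matched its label more closely at the late stages. Lhx2 itself stood there at 47.8, 46.3, 242 and 199 CPM from E8.0 to E10.5, against 1.06 to 4.97 CPM in other cells, and Myf5, the earliest myogenic determination factor, at 1.40, 0.39, 27.1 and 57.9 CPM. Both genes served in this gate, so the gap in Lhx2 to other cells was set by it and is no test of the label. At E8.0 the 152 cells of the gate held 171 UMIs of Lhx2, where at least 1 per cell was asked for. The mesenchyme gate was broad in the early libraries, with 36.7% and 37.5% of retained cells, of which 83.5% and 86.9% also passed a cranial, somite, caudal or heart field gate. At E9.5 and E10.5 those shares of the gate were 48.6% and 37.4%. Gates were set at full depth, and the early libraries were deeper, with medians of 21321 and 35216 UMIs against 17254 and 15205. On cells cut at random to 10000 UMIs, shallower cells left out, the mesenchyme gate held 1227, 460, 327 and 1175 cells. The muscle progenitor gate then held 54, 34, 573 and 318. The part of depth in the breadth of the gates was not tested. The cranial mesoderm gate went against its label at the late stages. There Cyp26c1 was detected in 0% of its cells and Otx2 in 1.52% and 1.79%. These cells are called the late cranial-gate cells below. They held Foxf1, a gene of splanchnic mesoderm, at 274 and 139.5 CPM, and Osr1 at 212 and 269 CPM.

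Over all retained cells, Ebf1 was at 56.9, 77.4, 79.5 and 76.4 CPM in order of stage. Ebf2 was at 15.1, 21.4, 15.1 and 15.7 CPM, and Ebf3 at 4.56, 6.72, 10.4 and 17.2 CPM. Ebf3 was thus the member whose level differed most between the first and the last stage, with a log2 ratio between E10.5 and E8.0 of 1.92 (95% interval 1.79 to 2.04). The same ratio was 0.43 (0.38 to 0.47) for Ebf1 and 0.05 (-0.03 to 0.14) for Ebf2, the latter within counting error. Haemoglobin-rich cells, which made few Ebf UMIs, numbered 67, 315, 4 and 1026 and so took up unequal parts of the libraries. Without them the log2 ratios were 0.76 for Ebf1, 0.38 for Ebf2 and 2.23 for Ebf3. Of the UMIs that fell on the 3 genes, Ebf1 held 74.3% at E8.0 and 69.9% at E10.5, Ebf2 19.8% and 14.3%, and Ebf3 5.95% and 15.7%.

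**Figure D1:**
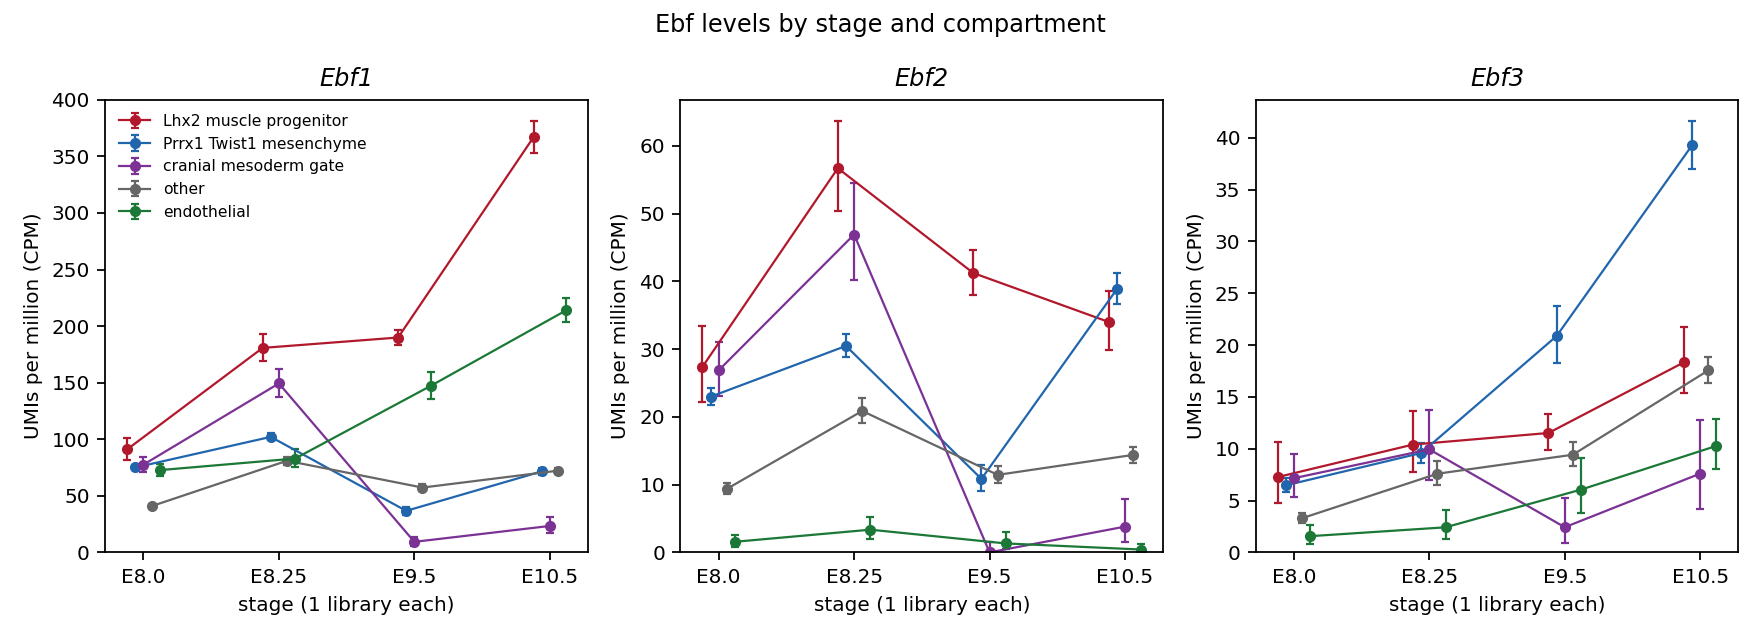
CPM of Ebf1, Ebf2 and Ebf3 (1 panel each) at the 4 stages in 5 compartments, with exact Poisson 95% intervals that cover counting error only and 1 library per stage. Ebf1 in the muscle progenitor gate reached 367 CPM at E10.5, Ebf3 in the mesenchyme gate reached 39.3 CPM, and the endothelial line of Ebf2 stayed between 0.42 and 3.35 CPM.

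Taken over all cells of the gate, Ebf1 and Ebf2 were higher in the Lhx2 muscle progenitor gate than in other cells at every stage. Ebf1 was at 91.1, 181, 190 and 367 CPM in the gate and at 40.8, 81.0, 57.3 and 72.2 CPM in other cells. The levels of the gate did not overlap those of other cells, but how many of all genes tested did the same was not counted. Within each library the log2 ratio was 1.16, 1.16, 1.73 and 2.35. In the fit blocked by library Ebf1 rose in the gate by 1.63 on the log2 scale (SE 0.203; edgeR quasi-likelihood test, Benjamini-Hochberg adjusted p = 0.0256; higher in 4 of 4 libraries). This p measures how evenly the difference recurred over the 4 stages and not over replicate embryos. The Ebf1 call did not hold without the library of E8.0, E8.25 or E9.5, with edgeR quasi-likelihood Benjamini-Hochberg adjusted p of 0.0596, 0.0536 and 0.158, while the fold change stayed between 1.38 and 1.78 over the 4 such fits.

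Ebf2 was at 27.4, 56.7, 41.2 and 34.0 CPM in the muscle progenitor gate and at 9.36, 20.9, 11.4 and 14.4 CPM in other cells. The lowest gate level lay above the highest level of other cells, which again was not counted over all genes tested. Its fitted log2 fold change was 1.54 (SE 0.107; edgeR quasi-likelihood test, Benjamini-Hochberg adjusted p = 0.00341; higher in 4 of 4 libraries). Unlike those of Ebf1, the Ebf2 levels of the gate were highest at E8.25 and not at E10.5. The log2 ratio between E10.5 and E8.0 within the gate was 2.01 (1.84 to 2.18) for Ebf1 and 0.31 (-0.03 to 0.67) for Ebf2.

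Ebf3 was at 7.26, 10.4, 11.5 and 18.3 CPM in the gate and at 3.29, 7.59, 9.42 and 17.6 CPM in other cells, and these ranges overlapped. Its fold change of 0.42 (SE 0.162) did not pass (edgeR quasi-likelihood test, Benjamini-Hochberg adjusted p = 0.337; higher in 4 of 4 libraries), and within libraries the ratio went from 1.14 at E8.0 to 0.06 at E10.5. Thus 2 of the 3 members were called in this comparison, where 0.945% of 12908 genes were called in either direction. When every cell outside the 3 gates was counted as other, blood and endothelium included, Ebf3 passed as well (0.91; edgeR quasi-likelihood test, Benjamini-Hochberg adjusted p = 0.0288).

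Endothelial cells, which make Ebf1 as described below, were gated out before the muscle progenitor gate and other cells were formed. The same holds for cardiomyocytes, haemoglobin-rich cells and macrophages. Marker sums in the cells that remained are therefore partly set by the gates and are not cell frequencies. The 6 endothelial marker genes summed to 5.03 to 9.42 CPM in the gate and to 10.3 to 18.5 CPM in other cells, with only Tie1 at 0 in the gate, at E8.0. The 8 cardiomyocyte genes summed to 78.4 to 523 CPM in the gate and 186 to 403 CPM in other cells, with none at 0 in the gate. The 7 haemoglobin genes summed to 8.27 to 4837 CPM in the gate and 41.6 to 5116 CPM in other cells, with Hbb-bt at 0 in the gate at E8.0 and Hbb-bt and Hbb-bs at E9.5. The 5 macrophage genes, each at 0 in the gate at E8.0, summed to at most 2.94 CPM in the gate and to 0.20 to 6.99 CPM in other cells. The part of these cells in the result was not tested.

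Within the muscle progenitor gate, Ebf levels differed with myogenic genes and with mesenchymal genes. At E9.5, cells with a UMI of Myf5 or Myod1 held Ebf1 at 278 CPM (95% interval 263 to 293, 212 cells) and the other cells of the gate at 150.0 CPM (143 to 158, 545 cells). Ebf2 was at 57.4 CPM (50.8 to 64.6) and 33.9 CPM (30.4 to 37.6) in the same cells, so that both were higher where a myogenic factor was detected. At E10.5 Ebf1 was at 399 CPM against 321 CPM, a smaller gap, and Ebf2 at 32.3 CPM (27.1 to 38.2) against 36.5 CPM (29.9 to 44.1), which overlap. Ebf3 did not separate these cells at either stage, with 12.1 against 11.3 CPM at E9.5 and 17.6 against 19.4 CPM at E10.5. Depth was not matched in this split.

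Mesenchymal genes divided the gate differently at the early and late stages, a difference that was not tested. At E8.0, Ebf1 stood at 138 CPM (122 to 156) in the 72 gate cells with Prrx1 and Twist1 and at 38.4 CPM (29.7 to 49.0) in the 80 cells without both. Ebf2 stood at 41.3 CPM and 11.8 CPM (7.22 to 18.3) in the same cells. Other cells of E8.0 held Ebf1 at 40.8 CPM and Ebf2 at 9.36 CPM, inside the intervals of those 80 cells. At E8.0 the gate thus exceeded other cells through the cells that also held Prrx1 and Twist1. At E8.25 the levels of Ebf1 were 179 and 184 CPM, with overlapping intervals. At E9.5 and E10.5 Ebf1 was lower in the cells with both genes, at 129 against 195 CPM and at 235 against 380 CPM. When cells that passed both gates were given to mesenchyme, Ebf1 in the muscle progenitor gate kept a fold change of 1.49 over other cells, with an edgeR quasi-likelihood Benjamini-Hochberg adjusted p of 0.0783.

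**Figure D2:**
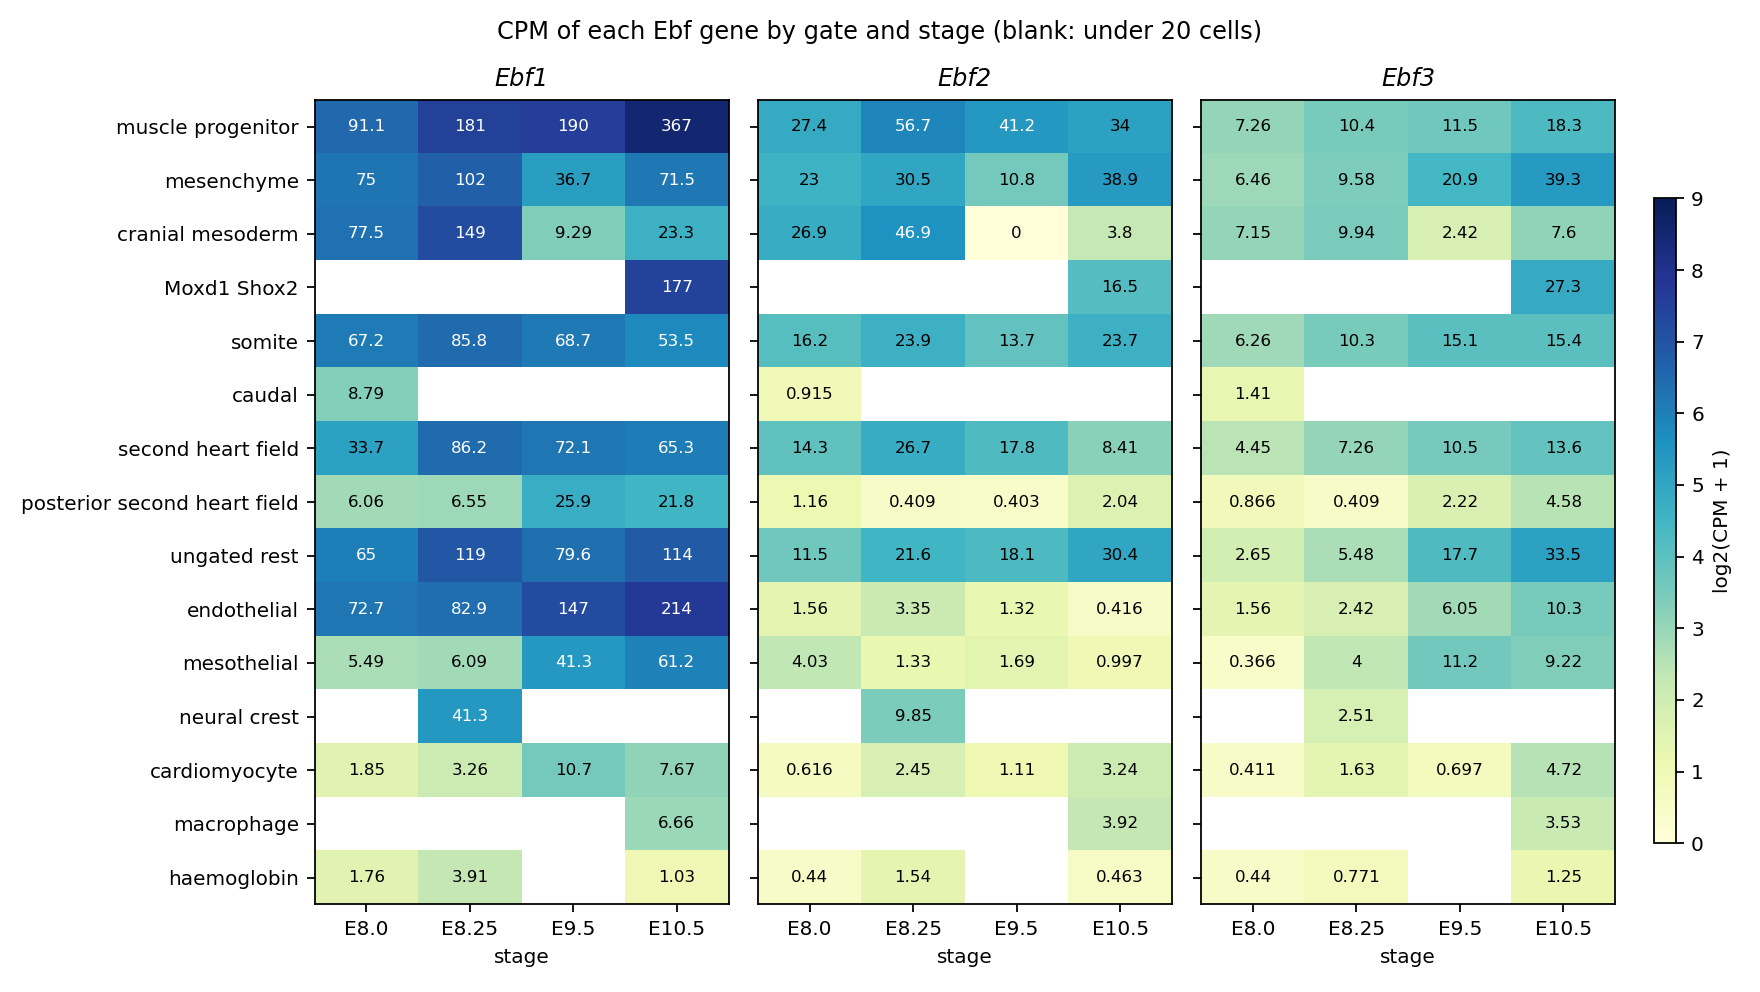
CPM of each Ebf gene in 15 gates (rows) at the 4 stages (columns), coloured by log2(CPM + 1), with gates under 20 cells left blank. Ebf1 is high in the muscle progenitor and endothelial rows, whereas the haemoglobin, cardiomyocyte and caudal rows are pale for the 3 genes.

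In the mesenchyme gate Ebf3 was the member that passed the test. It was at 6.46, 9.58, 20.9 and 39.3 CPM from E8.0 to E10.5, against 3.29, 7.59, 9.42 and 17.6 CPM in other cells. Within libraries the gate was the higher at each stage, with log2 ratios of 0.97, 0.34, 1.15 and 1.16, although the ranges over stages overlapped. Ebf3 rose in the gate by 0.95 (SE 0.139; edgeR quasi-likelihood test, Benjamini-Hochberg adjusted p = 0.0393; higher in 4 of 4 libraries). In this comparison 1.11% of 13731 genes were called in either direction. The Ebf3 call did not hold without the library of E9.5 or E10.5, nor with gates at 2 UMIs or on thinned cells, with edgeR quasi-likelihood Benjamini-Hochberg adjusted p of 0.0926, 0.139, 0.0788 and 0.0560.

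Ebf2 in the mesenchyme gate was at 23.0, 30.5, 10.8 and 38.9 CPM, higher than in other cells at 3 stages and not at E9.5, where other cells held 11.4 CPM. Its fold change was 0.91 (SE 0.223; edgeR quasi-likelihood test, Benjamini-Hochberg adjusted p = 0.113). A mesenchyme gate limited to cells that passed none of the cranial, somite, caudal or heart field gates, which was tried only once the results were known, gave 1.16 with an edgeR quasi-likelihood Benjamini-Hochberg adjusted p of 0.0469. The cells removed from the gate then counted as other cells or as cranial gate cells, so that both sides changed (3129 to 4818 other cells at E8.0). Ebf2 also passed in the unchanged gate with every cell outside the 3 gates as other, and without the filter on low counts. The Ebf2 result thus lay on either side of the threshold according to the cells compared and the filter.

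Ebf1 was at 75.0, 102, 36.7 and 71.5 CPM in the mesenchyme gate and showed no common direction against other cells. The log2 ratio was 0.88 at E8.0 and 0.33 at E8.25, then -0.64 at E9.5 and, within counting error, -0.013 (-0.095 to 0.068) at E10.5. The fitted value was 0.21 (SE 0.205; edgeR quasi-likelihood test, Benjamini-Hochberg adjusted p = 0.660).

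Set directly against mesenchyme, the muscle progenitor gate held more Ebf1 at every stage, by log2 ratios of 0.28, 0.82, 2.37 and 2.36. The fitted difference of 1.47 (SE 0.375) did not pass (edgeR quasi-likelihood test, Benjamini-Hochberg adjusted p = 0.205). For Ebf2 the ratios were 0.25, 0.90, 1.93 and -0.19, so that at E10.5 both compartments held about as much (34.0 and 38.9 CPM; interval of the ratio -0.40 to 0.01). For Ebf3 they were 0.17 and 0.12 at the early stages, within counting error, and -0.86 (-1.15 to -0.57) and -1.10 (-1.37 to -0.84) at the late stages. In the late libraries Ebf1 was therefore higher in muscle progenitors and Ebf3 higher in mesenchyme. In this comparison 0.402% of 12175 genes were called, and none of the 3 members was called by edgeR or by DESeq2. At an unadjusted edgeR p under 0.05 were 1 of the 3 members and 1463 of the 12175 genes. With gates at 2 UMIs the difference in Ebf1 was 2.35 and passed (edgeR quasi-likelihood test, Benjamini-Hochberg adjusted p = 0.0171).

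The early and the late cells of the cranial mesoderm gate differed in Ebf1 and Ebf2, though no test was made between stages. Ebf1 was at 77.5 and 149 CPM at E8.0 and E8.25, above the 40.8 and 81.0 CPM of other cells. In the late cranial-gate cells, of E9.5 and E10.5, it was at 9.29 and 23.3 CPM, below the 57.3 and 72.2 CPM of other cells. Ebf2 was at 26.9 and 46.9 CPM early and at 0 and 3.80 CPM late. At E9.5, 0 UMIs of Ebf2 among 132 cells allow up to 1.21 CPM (3 counts in these cells together), which is at least 9.44-fold lower than in other cells. Ebf3 was at 7.15, 9.94, 2.42 and 7.60 CPM. None of the 3 members was called against other cells by edgeR or by DESeq2, where 0.49% of 12456 genes were called, and 1 fold over the 4 libraries describes neither pair. At an unadjusted edgeR p under 0.05 were 0 of the 3 members and 1101 of the 12456 genes.

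Against the cranial mesoderm gate, muscle progenitors held similar amounts of Ebf1 in the early libraries, 91.1 against 77.5 CPM at E8.0 and 181 against 149 CPM at E8.25, with log2 ratios of 0.23 (0.03 to 0.43) and 0.28 (0.12 to 0.43). The ratio over the late cranial-gate cells was 4.35 and 3.97. Of the 3 members, 0 were called by edgeR quasi-likelihood and 0 by DESeq2, and 0.239% of 10479 genes were called in this comparison. At an unadjusted edgeR p under 0.05 were 2 of the 3 members and 1021 of the 10479 genes.

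**Figure D3:**
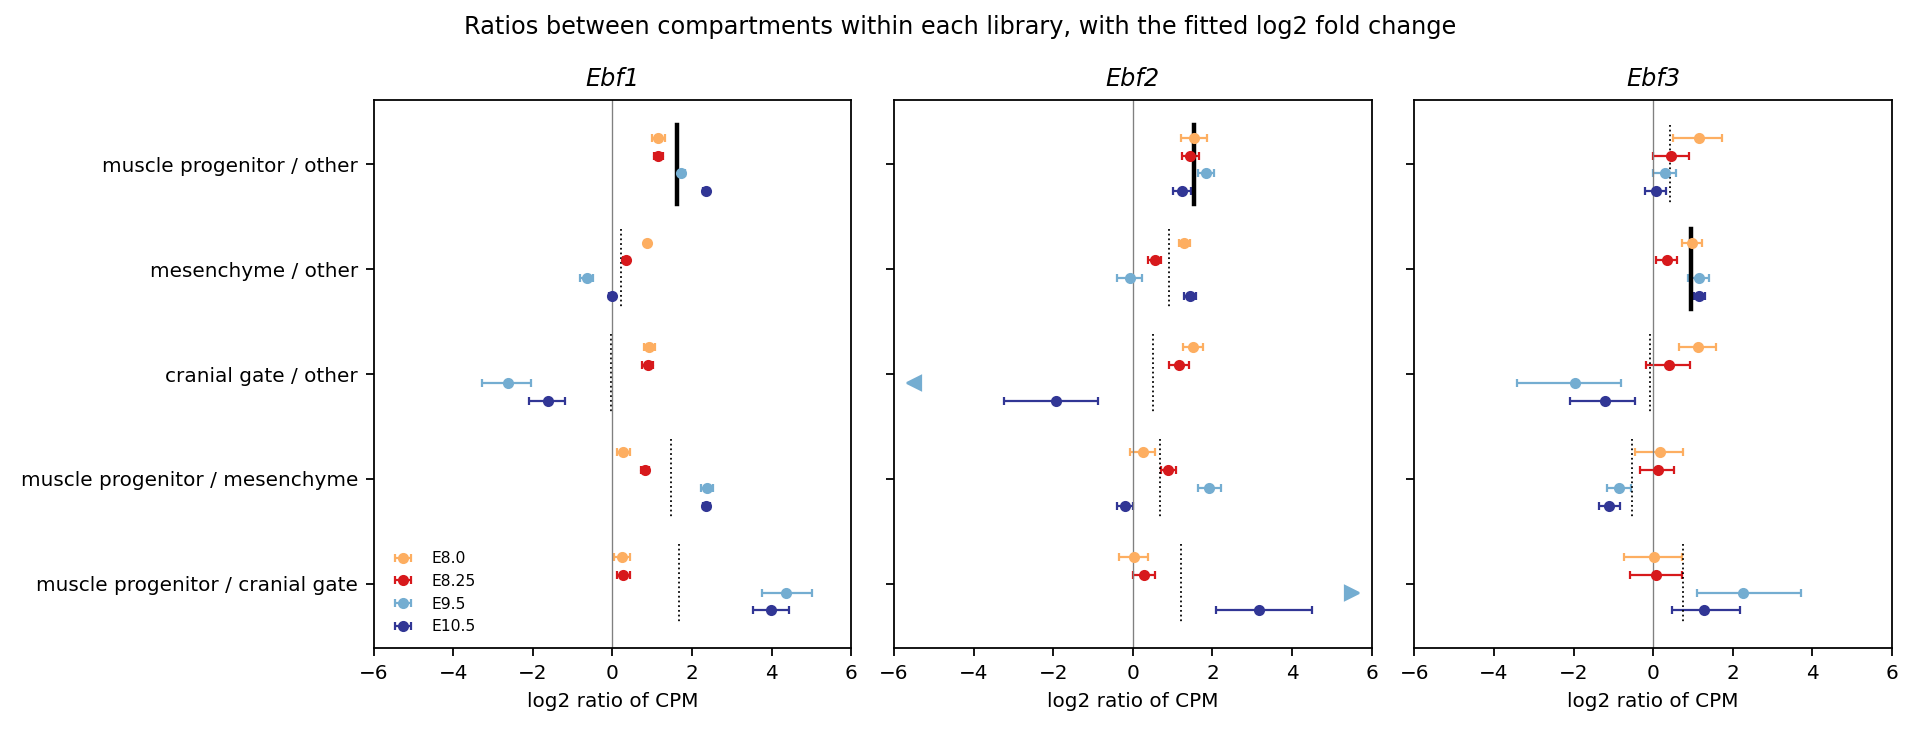
Log2 ratio of CPM between 2 compartments within each library, with exact 95% intervals for counting error, for 5 comparisons and the 3 genes. The black line is the fitted log2 fold change, thick where it passed and dotted where it did not, and arrowheads mark E9.5, where Ebf2 had 0 UMIs in the cranial gate and no finite ratio. In the comparison of the cranial gate with other cells, the early and late points lie on opposite sides of 0.

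Ebf1 without Ebf2 was found in endothelial cells. Ebf1 was at 72.7, 82.9, 147 and 214 CPM in the endothelial gate from E8.0 to E10.5, next to Ebf2 at 1.56, 3.35, 1.32 and 0.42 CPM. Ebf3 was at 1.56, 2.42, 6.05 and 10.3 CPM there. Among haemoglobin-rich cells, taken as background, Ebf1 was at 1.76, 3.91 and 1.03 CPM in the 3 libraries with at least 20 such cells, and Ebf2 at 0.44, 1.54 and 0.46 CPM, which endothelial Ebf2 did not clearly exceed. Endothelial cells with a UMI of Nfatc1, an endocardial gene, held Ebf1 at 202 CPM (182 to 224) in the E9.5 library, where endothelial cells without it held 99.4 CPM (86.2 to 114). In the E10.5 library these levels were 270 CPM (252 to 289) and 171 CPM (158 to 184). At E8.0 Ebf1 was the same within counting error in both (73.3 and 72.4 CPM).

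Other gates were graded. At E10.5 the Moxd1 Shox2 cells held Ebf1 at 177 CPM, below only the muscle progenitor and endothelial gates, with Ebf2 at 16.5 CPM and Ebf3 at 27.3 CPM. The somite gate held Ebf1 at 67.2, 85.8, 68.7 and 53.5 CPM. The second heart field gate held Ebf1 at 33.7, 86.2, 72.1 and 65.3 CPM, with Ebf2 at 14.3, 26.7, 17.8 and 8.41 CPM. Its posterior counterpart was low in each gene, with Ebf1 at 6.06, 6.55, 25.9 and 21.8 CPM, Ebf2 at no more than 2.04 CPM and Ebf3 at no more than 4.58 CPM. Mesothelial cells held Ebf1 at 5.49 and 6.09 CPM early but 41.3 and 61.2 CPM late, with Ebf2 between 0.997 and 4.03 CPM. Cardiomyocytes and, at E8.0, caudal cells were at or below 10.7 CPM for Ebf1 and 3.24 CPM for Ebf2. Among gates with at least 20 cells, the order of Ebf1 at E10.5 therefore ran from muscle progenitor over endothelial and Moxd1 Shox2 cells to cardiomyocytes, macrophages and haemoglobin-rich cells. In that order the intervals of mesenchyme (71.5 CPM) and the second heart field (65.3 CPM) were neighbours, as were cardiomyocytes (7.67 CPM) and macrophages (6.66 CPM).

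Detection in single cells was compared after each cell had been thinned at random to 10000 UMIs, which left out 938, 25, 431 and 1449 shallower cells from E8.0 to E10.5. In the muscle progenitor gate Ebf1 was detected in 35.3%, 65.0%, 63.9% and 88.7% of cells, and in 46.7%, 82.5%, 70.5% and 93.3% without thinning. Ebf2 was detected in 20.1%, 40.1%, 29.4% and 25.8% (34.2%, 66.4%, 43.5% and 35.9% without thinning), and Ebf3 in 6.47%, 11.7%, 11.1% and 18.2% (16.4%, 33.6%, 18.8% and 24.1%). Thus Ebf1 was detected in most late muscle progenitors and Ebf2 in a minority. In haemoglobin-rich cells, thinned alike, Ebf1 was in 0%, 3.18% and 1.36% of cells at E8.0, E8.25 and E10.5, and Ebf2 in 0%, 1.27% and 0.418%, where 0 of 64 cells at E8.0 allows up to 4.69%, taken as 3 cells of the total. In cardiomyocytes, the background at E9.5, Ebf1 was in 5.60% and Ebf2 in 1.68% of 357 cells, and Ebf3 in 0.840%.

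In the mesenchyme gate Ebf3 was detected in 6.75%, 8.62%, 17.4% and 26.7% of thinned cells and Ebf1 in 35.5%, 45.5%, 15.0% and 34.3%. At E9.5, 93 of 533 mesenchyme cells were positive for Ebf3 and 80 for Ebf1, with overlapping intervals (14.3 to 20.9% and 12.1 to 18.3%). Endothelial cells were positive for Ebf1 in 47.3%, 47.4%, 56.8% and 62.7% and for Ebf2 in 1.65%, 1.71%, 1.64% and 0.583%. Ebf3 was detected in 1.65%, 1.14%, 7.10% and 9.33% of endothelial cells.

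**Figure D4:**
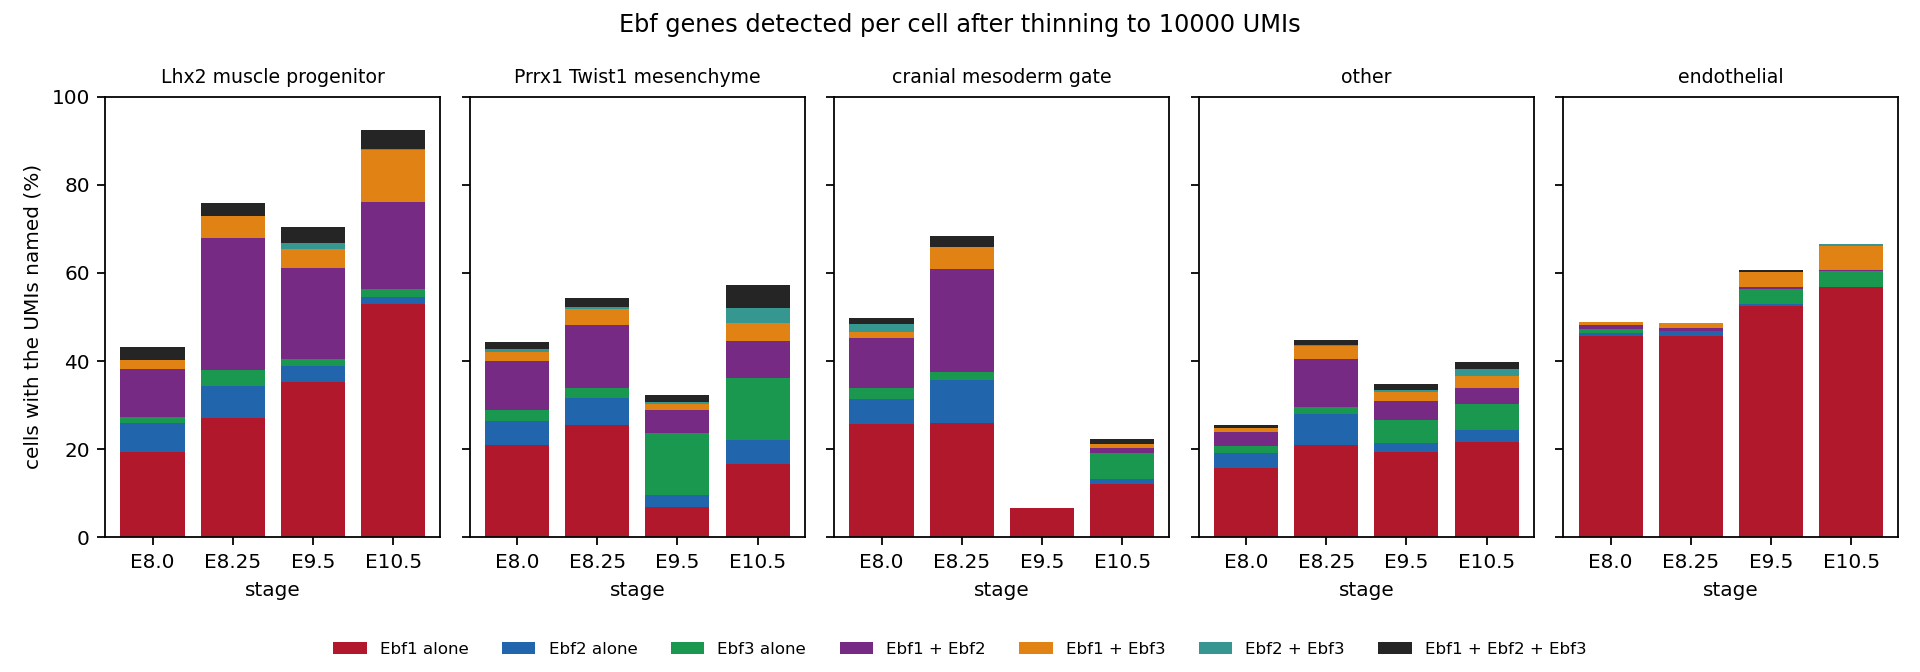
Percentage of thinned cells with UMIs of Ebf1, Ebf2 and Ebf3 alone or together (colours) at the 4 stages in 5 compartments, and the space above a bar is cells with none. In late muscle progenitors most positive cells hold Ebf1, alone or with Ebf2, whereas in late mesenchyme Ebf3 alone is a large class, 14.0% of cells at E10.5. Alone means that the other members were not detected at this depth, which does not show that they were absent.

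Taken over all retained cells, those that held 1 member were more often positive for another, which did not hold in every compartment. Ebf1 and Ebf2 were found together 2.22, 1.89, 2.44 and 2.07 times as often as the product of their shares gives from E8.0 to E10.5. The same ratio was 1.78, 1.81, 1.26 and 1.31 for Ebf1 with Ebf3 and 2.54, 1.51, 2.07 and 2.44 for Ebf2 with Ebf3. Ratios over all cells include the differences between compartments, and those within a compartment are given next.

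In the mesenchyme gate Ebf1 was detected in 66.3%, 71.4%, 67.9% and 60.2% of Ebf2-positive cells and in 28.3%, 37.8%, 9.17% and 26.8% of Ebf2-negative cells. The intervals were apart at each stage, and the observed number was 1.87, 1.57, 4.53 and 1.76 times the product. Ebf3 behaved otherwise in late mesenchyme. There Ebf1 was detected in 16.1% of Ebf3-positive and 14.8% of Ebf3-negative cells at E9.5, and in 34.8% and 34.1% at E10.5, with ratios to the product of 1.07 and 1.02. At E8.0 and E8.25 the same ratio was 1.49 and 1.49. Ebf2 was detected in 11.8% of Ebf3-positive mesenchyme cells (6.05 to 20.2%) and 9.55% of Ebf3-negative cells (6.97 to 12.7%) at E9.5, with overlapping intervals. At E10.5 it was found with Ebf3 more often than the product, in 31.9% of Ebf3-positive cells (27.4 to 36.6%) and 18.9% of Ebf3-negative cells (16.7 to 21.3%).

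In the muscle progenitor gate Ebf1 was in 67.9%, 81.8%, 83.3% and 92.9% of Ebf2-positive cells and in 27.0%, 53.7%, 55.9% and 87.2% of Ebf2-negative cells. The intervals were apart at E8.0, E8.25 and E9.5 and overlapped at E10.5, where 88.7% of cells held Ebf1. For Ebf2 with Ebf3 the ratio was 2.21, 0.623, 1.60 and 0.955 from E8.0 to E10.5, and for Ebf1 with Ebf3 it was 2.21, 1.06, 1.13 and 0.997. The early ratios rest on 9 and 16 Ebf3-positive cells. In E10.5 muscle progenitors, 52.9% of 380 cells held Ebf1 alone, 19.7% Ebf1 with Ebf2, 11.8% Ebf1 with Ebf3, 4.21% the 3 genes together and 7.63% none. In mesenchyme of the same stage these were 16.6%, 8.39%, 4.19%, 5.10% and 42.8% of 1550 cells. Each cell counts once here, but cells of 1 library share its embryos and its preparation, so these shares have no replicate error.

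**Figure D5:**
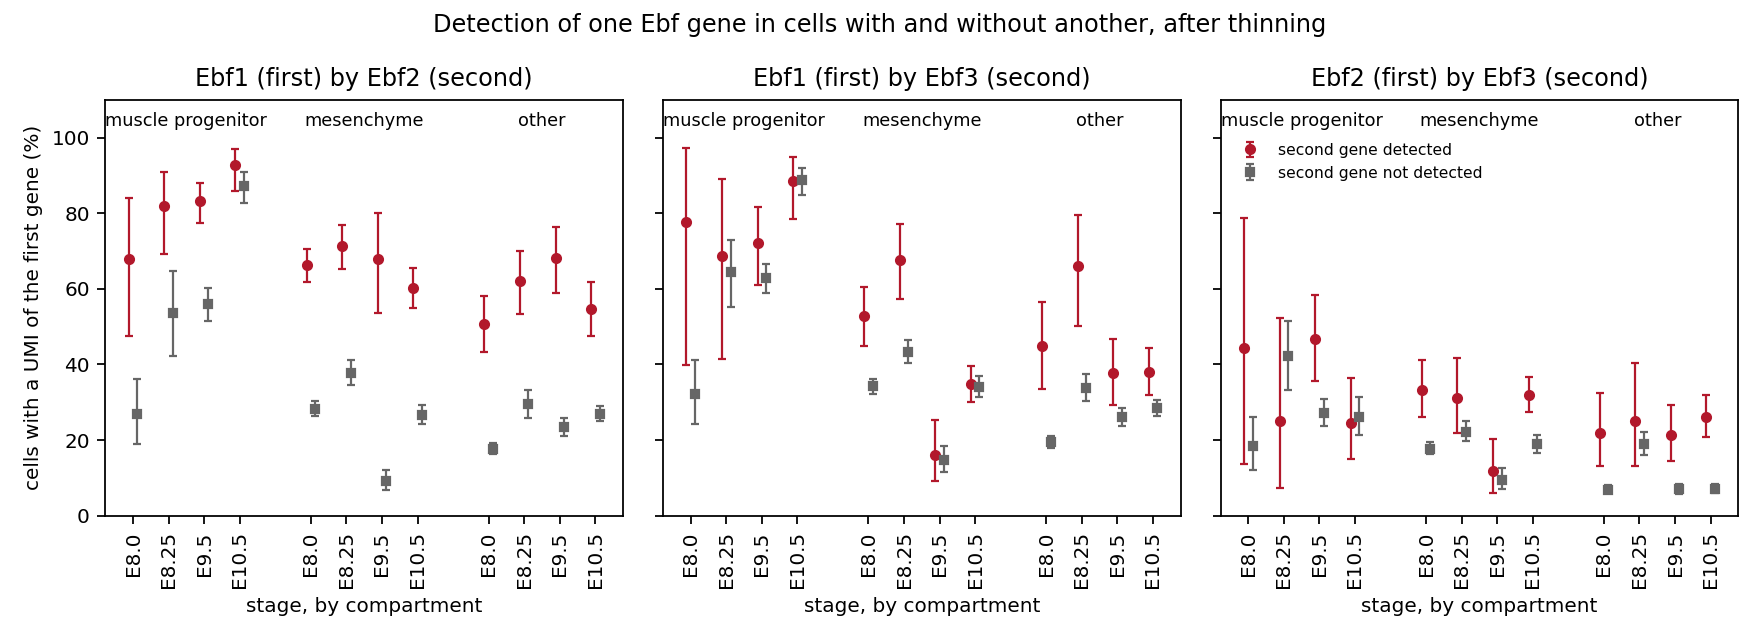
Percentage of thinned cells with a UMI of the first gene among cells with (red circles) and without (grey squares) the second, with exact 95% intervals, by stage in 3 compartments. Ebf1 is apart by Ebf2 in mesenchyme at each stage (for example 67.9% against 9.17% at E9.5), but not by Ebf3 in late mesenchyme.

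Genes whose levels ran most alike with each member were ranked by Pearson's r of log2(CPM + 1) over 45 sums of cells, 1 per library and gate with at least 50 cells, among 9226 genes with a mean of at least 5 CPM that served in no gate. These r values are a description, since sums of a library share its depth and its free RNA. For Ebf1 the leading genes were Gm266 (0.862), Ralgds, Prex2, Ldb2 and Ddit4 (0.801), of which Ralgds and Prex2 encode exchange factors for small GTPases and Ldb2 a LIM-domain binding protein. For Ebf2 they included Six2 (0.811), Eya1 (0.801), Sobp and Grem1, of which Six2 is a homeodomain factor, Eya1 a transcriptional coactivator and Grem1 a BMP antagonist. For Ebf3 they were Tgfbi (0.855), Col26a1 (0.847), Serpinf1 (0.843), Ralgds and Lpar1, most of them genes of secreted or matrix proteins. The 3 lists shared only Ralgds, between Ebf1 and Ebf3, and the members themselves had r of 0.697 (Ebf1 with Ebf2), 0.753 (Ebf1 with Ebf3) and 0.689 (Ebf2 with Ebf3).

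Of the branchiomeric muscle regulators that had served in no gate, 3 are given between muscle progenitors and other cells, where the median log2 fold change over all genes tested was -0.0048. Eya1 rose by 1.03 (SE 0.132; edgeR quasi-likelihood test, Benjamini-Hochberg adjusted p = 0.0273). Six4 (0.43) and Eya4 (1.31) did not pass.

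Of 16 mesenchyme genes, 13 were in no gate and were tested between mesenchyme and other cells, where Prrx2 rose and none fell, with a median of 0.30 against 0.0042 over all genes tested. Alx4 at 1.72 and Runx2, the osteoblast factor, at 1.22 had larger fold changes than Ebf3 at 0.95 and did not pass. Of the family and cofactor genes, Zfp423 and Zfp521, zinc-finger proteins that bind EBF proteins, were at 6.35 to 16.6 and 8.57 to 24.5 CPM over compartments and stages. Neither Zfp423 nor Zfp521 passed in any of the 5 comparisons (edgeR quasi-likelihood test). Ebf4 had enough counts to be tested only between mesenchyme and other cells, and did not pass there. Between mesenchyme and other cells the 3 genes were at an unadjusted edgeR p under 0.05, as were 2351 of the 13731 genes tested. Their log2 fold changes there were 0.26 for Zfp423, 0.27 for Zfp521 and -0.80 for Ebf4. Ebf4, the remaining family member, was at no more than 1.12 CPM in these compartments. The B cell genes that Ebf1 activates in lymphocytes were nearly absent beside Ebf1, summing to between 0.83 and 2.94 CPM over 8 genes, and 1 of the 8 (Vpreb1) was abundant enough to be tested and did not pass. Of 3 sclerotome genes outside the gates 1 was tested in the muscle comparison and 2 in mesenchyme, and of 5 neuronal genes 1, Tubb3, with no call in any comparison.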

How the data were processed

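Per the labels and the study's methods, single-cell libraries were made with the version 2 3' kit of 10x Genomics, 1 per stage, and aligned to mm10 with Cell Ranger 3.1.0. The authors deposited raw UMI counts per gene and cell, not normalized and limited to called cells, with 74920880 to 168407965 UMIs per library in all.

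Cells with at least 1000 genes and at most 10% mitochondrial UMIs were kept (37 removed). The highest Scrublet scores (scanpy 1.11.5) were removed at 0.8% per 1000 cells (459, 70, 131 and 517 cells), since Scrublet's own threshold marked 120, 5, 1 and 92. In all, 271 barcodes occurred in more than 1 library. Genes counted in a gate with at least 1 UMI; the haemoglobin gate needed 5% and the cardiomyocyte gate 0.5% of UMIs.

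Counts were summed per library and compartment (at least 20 cells) and tested with edgeR 4.0.16 (quasi-likelihood, TMM, library as a block, Benjamini-Hochberg adjustment over all genes tested, threshold 0.05). Exact Poisson, conditional binomial and Clopper-Pearson 95% intervals cover counting error only. The fit was first tested on simulated data with known changes. DESeq2 1.42.0, other gates, thresholds, scalings and left-out libraries were tried as alternatives. Python 3.11.15, numpy 2.4.6, scipy 1.17.1, pandas 2.3.3 and R 4.3.3 were used.

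The members, gene lists, gates and tests were chosen with earlier results of these data known. Named genes were the 3 members, members of the lists, and for each member the 5 genes of highest Pearson's r; 2 genes among the markers, lists and rankings are not reported here.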

Additional observations from a re-analysis of the deposited data

Results flagged for a closer look

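For each result here, both early libraries (E8.0 and E8.25) lay on one side of 0 and both late libraries (E9.5 and E10.5) on the other. The difference between the early and late pair was not tested in any of them, and the dissected region changes together with the stage.

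The Ebf genes of the cranial mesoderm gate were higher than in other cells early and lower in those of the same gate late. For Ebf1 the log2 ratios were 0.93 and 0.88, then -2.62 and -1.63. For Ebf2 they were 1.52 and 1.17, then at least 9.44-fold lower in the E9.5 and -1.92 in the E10.5 library. For Ebf3 they were 1.12 and 0.39 (-0.17 to 0.91), then -1.96 and -1.21. The cells behind these ratios differed in their markers, since Cyp26c1 was detected in 13.2% and 25.4% of the gate early and in 0% late, and Otx2 in 40.2% and 38.9% early and in 1.52% and 1.79% late. The part of this difference in the result was not tested.

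For Ebf1 between mesenchyme and other cells, the log2 ratio was 0.88 and 0.33 early, then -0.64 in the E9.5 and -0.013 in the E10.5 library, the last within counting error. For Ebf3 between muscle progenitors and mesenchyme, it was 0.17 and 0.12 early, both within counting error, and -0.86 and -1.10 late.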

How the results depend on the processing

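Without the library block edgeR called 0 genes in each of the 5 comparisons, so that Ebf1 (1.73) and Ebf2 (1.53) in muscle progenitors and Ebf3 (1.03) in mesenchyme, each against other cells, no longer passed. Ebf1 in muscle progenitors against other cells also failed with cells of both gates given to mesenchyme (1.49), and ranged from 1.38 to 1.78 with 1 library left out. Ebf3 in mesenchyme against other cells failed with gates at 2 UMIs (0.69), gates on thinned cells (0.89) and mesenchyme limited to cells of no other gate (0.86), and ranged from 0.85 to 1.13 with 1 library left out. Results that passed only under an alternative were Ebf3 in muscle progenitors (0.91) and Ebf2 in mesenchyme (1.52) with every cell outside the gates as other, Ebf2 in mesenchyme without the filter on low counts (0.92) or in the limited gate (1.16), Ebf1 in muscle progenitors over mesenchyme with gates at 2 UMIs (2.35), and Ebf1 (1.70) and Ebf2 (1.22) over the cranial gate without the filter. The value of 2.35 rests on 3 libraries, without E8.0.

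In the cranial gate against other cells, Ebf1 turned positive with every cell outside the gates as other (0.10), the cranial gate first (0.47), gates at 2 UMIs (0.36), gates on thinned cells (0.22) and no block (0.10), and ranged from -0.56 to 0.40 with 1 library left out. Ebf3 turned positive under the first 3 of these (0.38, 0.25 and 0.094) and with the limited mesenchyme gate (0.052), and ranged from -0.62 to 0.25. Ebf2 turned negative with DESeq2 (-0.82) and ranged from -0.069 to 0.91. Ebf1 in mesenchyme against other cells turned negative with gates at 2 UMIs (-0.089) and ranged from -0.032 to 0.43.

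Counts of genes called, in the order muscle progenitor, mesenchyme and cranial gate against other cells, then muscle progenitor against mesenchyme and against the cranial gate, were 122, 152, 61, 49 and 25. They became 500, 609, 304, 267 and 430 without the filter, 278, 70, 118, 253 and 79 with gates at 2 UMIs, and 310, 439, 232 and 51 with DESeq2 (cranial gate against other cells within 1.5 times). With gates at 2 UMIs the comparisons of muscle progenitors rested on 3 libraries, without E8.0. With every cell outside the gates as other, the first 3 were 1033, 1740 and 1061. With gates on thinned cells they were 358 for muscle progenitors against other cells, 151 against mesenchyme and 64 against the cranial gate. With total counts 31 genes, and with the mesenchyme gate first 192, were called between muscle progenitors and mesenchyme, and 46 against the cranial gate with mesenchyme first. With the cranial gate first, which like the limited mesenchyme gate was tried only once the results were known, the cranial gate gave 39 calls against other cells and 43 against muscle progenitors, and with the limited mesenchyme gate 14 against other cells. With 1 library left out the counts ranged from 17 to 70, 12 to 237, 35 to 57, 0 to 26 and 6 to 30.

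The log2 ratio between E10.5 and E8.0 moved past its interval with haemoglobin-rich cells left out (0.76, 0.38 and 2.23 for Ebf1, Ebf2 and Ebf3). The median overlap ratio over the 4 libraries was 2.14 for Ebf1 with Ebf2, 1.54 for Ebf1 with Ebf3 and 2.26 for Ebf2 with Ebf3, and became 2.71, 1.96 and 3.52 when a positive cell needed 2 UMIs, with ranges over libraries of 2.47 to 3.36, 0.885 to 2.82 and 0 to 10.9. The causes of these changes were not tested. With 4 libraries of 4 stages, no result has replicate embryos behind it. The library block pairs compartments of the same library, and the labels give no replicate numbers that could pair libraries.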
